A study of Mus musculus with 2 samples.

Results

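The 36 nuclear genes that encode the aminoacyl-tRNA synthetases of the cytosol and of mitochondria were read out in single-cell RNA libraries of mouse leukemia progenitors. The genes were taken by symbol from the 31053 genes listed in both count matrices, and all 36 were found. They divide into 20 cytosolic enzyme genes and 16 mitochondrial enzyme genes whose symbols end in 2. Gars and Kars are counted with the cytosolic genes, although each also supplies the mitochondrial enzyme.

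The cells come from mice carrying a leukemia that the labels call I1DN, sorted as cKit+ and Cd11b-. The study's title speaks of mutant IDH1, and the alleles behind the name I1DN are not spelled out in the sources used here. Mice received vehicle or AG-120 for 5 days; AG-120 (ivosidenib) blocks the mutant form of IDH1. There is 1 library per treatment, both of I1DN cells, and the number of mice pooled in each is not given in the sources used here. Every difference below therefore compares 2 libraries and has no replicate check.

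An aminoacyl-tRNA synthetase joins an amino acid to its matching tRNA, the step that sets the meaning of the genetic code before the ribosome. Cytosolic enzymes charge the tRNAs used for most proteins, and a second, mostly separate set is imported into mitochondria to charge the tRNAs for the few proteins of the respiratory chain made there. Several cytosolic enzymes are held in the multisynthetase complex on the scaffold proteins Aimp1, Aimp2 and Eef1e1. Many cytosolic synthetase genes are known targets of ATF4, the transcription factor made when amino acids run short or eIF2 is phosphorylated. Blood progenitors that enter the erythroid lineage make large amounts of protein and heme, the latter beginning in mitochondria.

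A cell was kept when it had 500 or more detected genes and no more than 10% of its UMIs (unique molecules counted) from mitochondrial genes. The vehicle library then held 3914 cells with 56240310 UMIs and the AG-120 library 3756 cells with 96084632 UMIs. The median kept cell had 13156.5 UMIs in the vehicle library and 25681.5 in the AG-120 library, so depth differs between the libraries along with treatment. The summed level of 9 erythroid markers was 224 CPM with vehicle and 2226 CPM with AG-120 (CPM, UMIs per 1000000 UMIs of the library), and that of 4 stem and progenitor markers was 1020 and 60.8 CPM. Of the 9 erythroid markers, 8 were higher with AG-120. The other, Hbb-bt, named after its value was seen, was lower, at 62.8 CPM with vehicle and 29.8 CPM with AG-120. The 5 granulocyte-monocyte progenitor markers summed to 2959 and 973 CPM, the 6 neutrophil markers to 1841 and 513 CPM, and the 6 megakaryocyte markers to 803 and 77.4 CPM. The B cell list summed to 25.16 and 6.12 CPM, nearly all of it Cd79b (25.05 and 5.91 CPM), with Ms4a1 at 0 UMIs in both libraries. The macrophage and T cell lists summed to at most 7.06 CPM, with Cd3e at 0 UMIs in both. The make-up of the libraries thus differs as well, and the synthetase members are therefore also given within Klf1/Car1 states; the partner lists at the end are given over all kept cells only. Of the barcodes, 17 occur in both libraries, and leaving them out moved no member by more than its counting interval.

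The promoters of 26 of the 36 members have an entry in the RefSeq promoter table (build GRCm38.p6), which covers 250 bases before to 50 bases after the gene start. They were searched on both strands for the composite element bound by ATF4 with a C/EBP partner, written TGATGNAA, since the members known to respond to ATF4 are described as a group below. The element was found in 5 of the 12 cytosolic members with an entry and in 0 of the 14 mitochondrial members, beside 4.51% of 27025 genes in the table. All 5 belong to the 7 known ATF4 responders with an entry. The matches, in capitals, lie at position −112 in Aars (chr8:111033710-111033757, plus strand), −30 in Gars (chr6:55037951-55037998, plus strand), −15 in Tars (chr15:11399659-11399693, minus strand), 8 in Iars (chr13:49682126-49682155, plus strand) and 4 in Yars (chr4:129189895-129189924, plus strand), counted to the first base of the match with 1 as the first transcribed base. Aars has a second match at position 10, which is not printed. Each is printed 5′ to 3′ on the strand of its gene, and only Yars carries the element in the forward direction; the others show its reverse complement.
Aars: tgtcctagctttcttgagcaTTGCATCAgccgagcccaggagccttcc
Gars: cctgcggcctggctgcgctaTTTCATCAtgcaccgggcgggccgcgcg
Tars: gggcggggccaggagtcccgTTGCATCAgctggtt
Iars: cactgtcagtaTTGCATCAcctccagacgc
Yars: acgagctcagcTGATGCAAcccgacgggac

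The E-box CACGTG, the motif of MYC and related factors, was present in 4 of 12 cytosolic promoters (Aars, Farsb, Iars and Tars) and in 1 of 14 mitochondrial promoters (Ears2), beside 8.09% of all genes in the table. The AG-120/vehicle ratios of these genes over all kept cells were 1.79 (Farsb), 1.46 (Aars), 1.25 (Tars), 1.15 (Iars) and 1.59 (Ears2). Members with an E-box thus did not share a high ratio. Only the Farsb match is printed, picked because Farsb is among the cytosolic members with the largest ratio between the libraries (chr1:78488911-78488956, minus strand, match at −39).
Farsb: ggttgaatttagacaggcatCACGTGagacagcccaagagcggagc
A CRE (TGACGTCA) was in 0 of the 26 windows, beside 2.03% of all genes. The interferon response core GAAANNGAA was in 1 of them, Qars, beside 9.76% of all genes. No motif overlaps another in these windows as searched, and a match is a description of letters only.

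Among all kept cells, most synthetase genes of both compartments had a higher share of UMIs with AG-120. At 1.2-fold or more, 15 of the 20 cytosolic genes were higher and 0 were lower. Of the 16 mitochondrial genes, 11 were higher and 1, Lars2, was lower. Among the 9419 genes with at least 500 UMIs over both libraries, 28.8% were higher and 42.2% were lower by the same fold. The median log2 ratio was 0.51 over the cytosolic and 0.47 over the mitochondrial members, and −0.12 over all measured genes. All 36 members passed the 500 UMI minimum. With ratios set relative to the median gene, 19 cytosolic and 13 mitochondrial members were higher at 1.2-fold. The share of all measured genes on that scale is not given, and the 28.8% above holds for the unscaled ratios only.

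Gars, the glycyl-tRNA synthetase of both compartments (chromosome 6, 55038007 to 55079500), had the highest ratio of the cytosolic group. UMIs tag 1 end of a transcript, so CPM values of different genes are set side by side without division by length. Its level was 88.4 CPM with vehicle and 192 CPM with AG-120, a 2.17-fold ratio with a 95% counting interval of 2.11 to 2.25. Cars, which charges cysteine, was a low-level gene at 14.4 CPM with vehicle and 30.1 CPM with AG-120 (2.09-fold, 1.93 to 2.26). Hars, the histidyl enzyme, stood at 58.5 and 114 CPM (1.95-fold, 1.87 to 2.02). These 3 genes lay well outside counting error between the libraries. Their mitochondrial partners, where they have one, had lower ratios: Cars2 was at 1.60-fold and Hars2 at 1.19-fold. The 3 genes were picked for the highest ratios of their group, so lower partner ratios show no common direction. Yars2, highest of the mitochondrial group at 2.01-fold, likewise had a lower partner in Yars at 1.48-fold.

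Phenylalanyl-tRNA synthetase is built from a catalytic chain, Farsa, and a tRNA-binding chain, Farsb, in equal number. Their ratios differed: Farsa went from 108 CPM with vehicle to 125 CPM with AG-120 (1.16-fold, 1.12 to 1.196), and Farsb from 76.5 to 137 CPM (1.79-fold, 1.73 to 1.85). The intervals do not overlap. On the CPM scale Farsa was the higher of the 2 chains in the vehicle library and Farsb in the AG-120 library.

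The 8 enzymes of the multisynthetase complex had ratios between 1.15 and 1.57, and 6 of the 8 were higher at 1.2-fold. Eprs, the fused glutamyl-prolyl enzyme, was the most abundant of them with AG-120 at 209 CPM, against 137 CPM with vehicle (1.53-fold, 1.49 to 1.57). Kars, the lysyl enzyme and the other dual-compartment gene, stood at 44.5 and 70.1 CPM (1.57-fold, 1.504 to 1.65). Mars (methionine, 1.55-fold), Lars (leucine, 1.48-fold), Qars (glutamine, 1.39-fold) and Rars (arginine, 1.37-fold) lay between, and Dars (aspartate, 1.16-fold) and Iars (isoleucine, 1.15-fold) were under the 1.2-fold mark. The 12 free-standing cytosolic enzymes spanned a wider range, 0.98 to 2.17, with a median log2 ratio of 0.49 beside 0.52 for the complex.

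Vars, the valyl enzyme, was the cytosolic member closest to no difference, at 121 CPM with vehicle and 119 CPM with AG-120 (0.98-fold, 0.95 to 1.01). It was also the third most abundant cytosolic member with vehicle, after Dars at 160 CPM and Eprs. The remaining cytosolic genes were Yars (tyrosine, 1.48-fold), Aars (alanine, 1.46-fold), Nars (asparagine, 1.35-fold), Wars (tryptophan, 1.27-fold), Tars (threonine, 1.25-fold) and Sars (serine, 1.17-fold). The 12 known ATF4 responders had a median log2 ratio of 0.55 with 10 of 12 higher, and the other 8 cytosolic genes a median of 0.46 with 5 of 8 higher. The 5 genes that carry the printed element ranged from 1.15-fold (Iars) to 2.17-fold (Gars), so members with the element lay at both ends of the group.

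**Figure D1:**
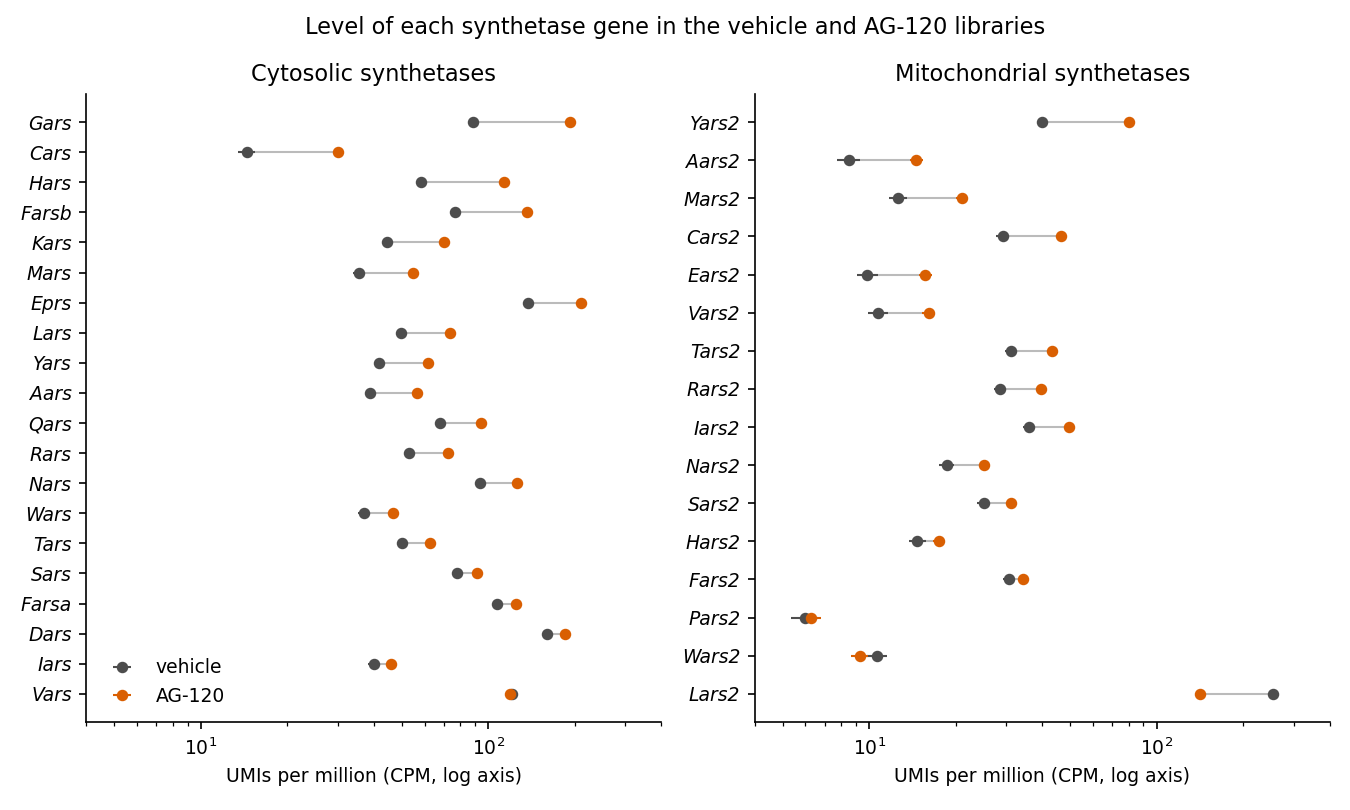
Level of each synthetase gene in CPM (log axis) in the vehicle (grey) and AG-120 (orange) library, 1 library each; bars are exact 95% counting intervals, often smaller than the point, and genes are ordered by their AG-120/vehicle ratio. Gars and Yars2 head their groups, Vars nearly coincides in the 2 libraries, and Lars2 is the mitochondrial gene with the vehicle point far to the right of the AG-120 point.

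Among the mitochondrial members, Yars2, the tyrosyl enzyme whose human counterpart is known from a sideroblastic anemia with myopathy, had the highest ratio. It stood at 39.9 CPM with vehicle and 80.3 CPM with AG-120 (2.01-fold, 1.92 to 2.11). Aars2 (alanine, 8.499 and 14.6 CPM, 1.72-fold), Mars2 (methionine, 12.6 and 21.01 CPM, 1.67-fold), Cars2 (cysteine, 29.1 and 46.7 CPM, 1.60-fold), Ears2 (glutamate, 9.87 and 15.7 CPM, 1.59-fold) and Vars2 (valine, 10.7 and 16.1 CPM, 1.504-fold) followed. Tars2, Rars2, Iars2, Nars2 and Sars2 lay between 1.24- and 1.40-fold. Hars2 (1.19-fold) and Fars2 (phenylalanine, 1.12-fold) were under the mark with intervals above 1.

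Pars2 was not distinguishable between the libraries at this depth, with 336 and 605 UMIs and a ratio of 1.05 (0.92 to 1.21). Wars2, the tryptophanyl enzyme, was lower with AG-120, at 10.7 CPM with vehicle and 9.26 CPM with AG-120 (0.87-fold, 0.78 to 0.96), which is under the 1.2-fold mark. Lars2, the mitochondrial leucyl enzyme, went from 255 CPM with vehicle to 142 CPM with AG-120 (0.56-fold, 0.54 to 0.57). Wars2 and Lars2 were the only members whose interval lay wholly under 1.

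Lars2 also carried the largest share of the mitochondrial group. It held 45.0% of all mitochondrial synthetase UMIs with vehicle and 23.9% with AG-120. Summed over all 16 genes, the mitochondrial level was 566 CPM with vehicle and 593 CPM with AG-120 (1.05-fold), and without Lars2 it was 312 and 451 CPM (1.45-fold). The cytosolic sum was 1392 and 1966 CPM (1.41-fold, 1.40 to 1.42). The 2 groups thus stood at nearly the same ratio once Lars2 was set aside.

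The cytosolic-to-mitochondrial ratio of summed UMIs was 2.46 with vehicle and 3.32 with AG-120, a 1.35-fold difference (1.33 to 1.37). Without Lars2 it was 4.46 with vehicle (4.39 to 4.54) and 4.36 with AG-120 (4.32 to 4.41), a ratio of 0.98. The higher cytosolic share with AG-120 therefore rests on 1 gene, and without it the direction is the opposite and the size small.

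Lars2 differed from the other 35 members in a second way. The cells of each library were divided into 4 bins of about equal size by their level of Gm42418 (chromosome 17, 39846958 to 39848788). RefSeq lists this gene model under the name Rn18s-rs5, a ribosomal RNA-related pseudogene. This division was chosen after the data were seen. From the lowest to the highest bin, Lars2 stood at 159, 224, 252 and 376 CPM in the vehicle library and at 89.5, 109, 153 and 211 CPM in the AG-120 library. Highest over lowest bin was 2.37-fold with vehicle (2.25 to 2.497) and 2.36-fold with AG-120 (2.24 to 2.48).

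Over the same bins, Lars, the cytosolic partner, was at 47.2 and 48.7 CPM in the lowest and the highest bin with vehicle, and Iars2, a mitochondrial enzyme of the same structural class, at 34.7 and 35.97 CPM. Lars2 was the only member higher at 1.2-fold in the highest bin of either library, 1 of 36 in each, beside 20.5% of measured genes with vehicle and 18.8% with AG-120. Among the 7139 genes with at least 300 UMIs per library compared in vehicle cells, Gm42418 had the highest Spearman correlation with Lars2 (0.22 over 3553 cells thinned to 6500 UMIs). It also ranked first of 6528 genes in AG-120 cells (0.19 over 3625 cells). No p is given, since cells of a library share its depth and free RNA.

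Gm42418 itself was at 3422 CPM with vehicle and 2133 CPM with AG-120. The bins allow Lars2 to be read at similar Gm42418 levels. The lowest vehicle bin had 930 CPM of Gm42418 and 159 CPM of Lars2, and the second AG-120 bin had 934 CPM of Gm42418 and 109 CPM of Lars2. The second vehicle bin had 1534 CPM of Gm42418 and 224 CPM of Lars2, and the third AG-120 bin had 1482 and 153 CPM. Lars2 was lower with AG-120 in both of these pairs, but the paired bins hold different cells. The neutrophil markers summed to 4362 CPM in the lowest vehicle bin and 138 CPM in the second AG-120 bin, and to 1486 and 243 CPM in the other pair. The granulocyte-monocyte progenitor markers summed to 3849 and 850 CPM in the first pair and to 2940 and 745 CPM in the other. The part of this make-up in the Lars2 levels was not tested.

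By sequence, transcript Lars2-201 shares 52 bases covered by identical 20-base words with the long non-coding RNA Gm15564 (chromosome 16). The stretch lies in the last exon of 21 and in the 3′ UTR of Lars2, at 123462048 to 123462099 of chromosome 9 (GRCm38). The transcript shares 0 such words with Gm42418, AY036118, Gm26917 and the mitochondrial ribosomal RNAs mt-Rnr1 and mt-Rnr2. No full sequence of the large cytosolic ribosomal RNA or its precursor was available for this search, so the result does not cover them. How far reads from ribosomal RNA enter the Lars2 count was not tested, and the Lars2 level is therefore uncertain as a level of the enzyme's mRNA.

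**Figure D2:**
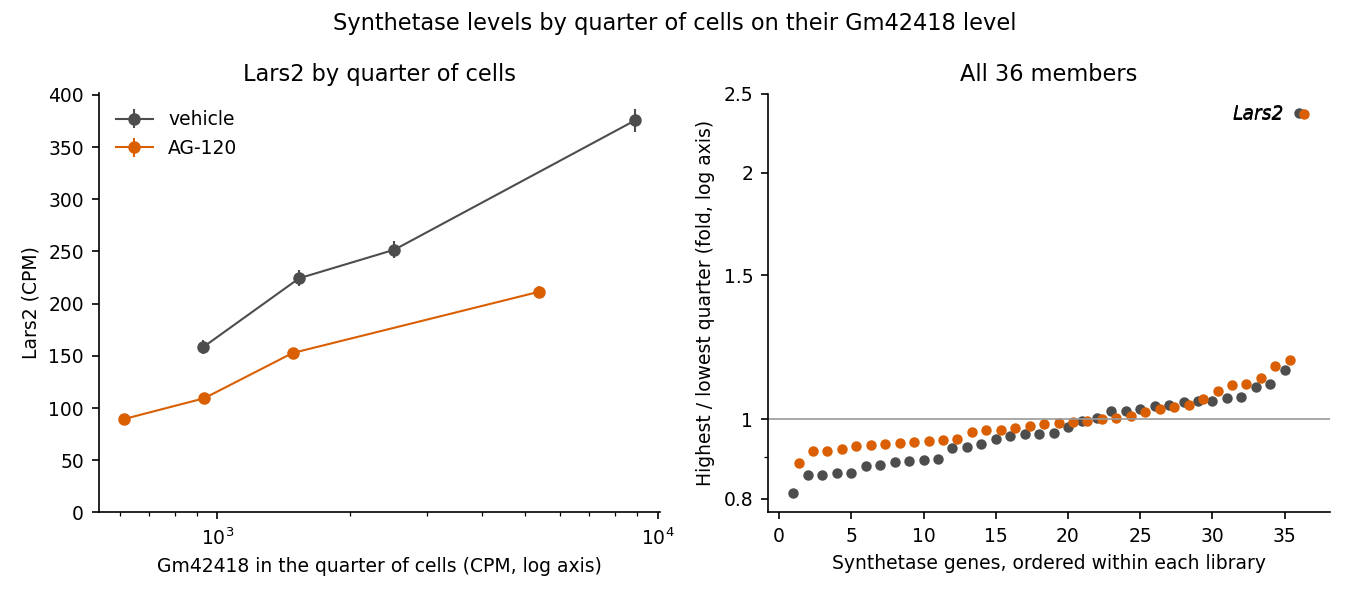
Left, Lars2 level against Gm42418 level (both in CPM, log x axis) in 4 bins of cells ordered by Gm42418, vehicle in grey and AG-120 in orange, with exact 95% counting intervals. Right, the ratio of the highest to the lowest bin (log axis) for all 36 synthetase genes, ordered within each library, where Lars2 is the single point at 2.37 and 2.36 and the other members lie between 0.81 and 1.18.

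When each mitochondrial enzyme was set beside its cytosolic partner, no common direction appeared. Of 17 pairs (Ears2 and Pars2 both face Eprs, and Fars2 faces both Farsa and Farsb), the cytosolic gene had the higher AG-120/vehicle ratio in 8 and the mitochondrial gene in 9. The intervals of the 2 genes were apart in 11 pairs, 6 with the cytosolic and 5 with the mitochondrial gene higher. The leucyl, histidyl, cysteinyl, prolyl and tryptophanyl pairs and Farsb with Fars2 favored the cytosolic gene. The alanyl, isoleucyl, threonyl, valyl and tyrosyl pairs favored the mitochondrial gene. Vars at 0.98-fold beside Vars2 at 1.504-fold, and Hars at 1.95-fold beside Hars2 at 1.19-fold, were the pairs furthest apart in each direction after the leucyl pair. Hars and Hars2 lie head to head and share 195 exonic bases on opposite strands. Since the counting strand is not given in the sources used here, reads from those bases cannot be assigned. In all, 13 of the 36 members share exonic bases with another gene in GENCODE. The longest stretches are 2034 bases of Iars2 with Rab3gap2 on the opposite strand and 1326 bases of Aars with Exosc6 on the same strand, and Mars shares 68 bases with Ddit3, itself an ATF4 target. The levels of these members are uncertain to that extent.

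Cells were divided by the presence of a UMI of Klf1, the erythroid master regulator, and of Car1, carbonic anhydrase 1 of early erythroid cells, in each cell thinned to 6500 UMIs. Cells with both (Klf1+Car1+) made up 1.04% of vehicle cells (37 of 3553) and 43.9% of AG-120 cells (1591 of 3625). Cells with Klf1 alone were 4.59% (163) and 20.9% (758), and cells with neither were 94.1% (3342) and 18.6% (674). Car1 alone was seen in 11 vehicle and 602 AG-120 cells, too few with vehicle to compare. Called from all UMIs of every kept cell, without thinning, the Klf1+Car1+ shares were 1.51% and 68.2%. As a background, cells with at least 1% of their UMIs from 6 neutrophil genes held Klf1 in 0 of 23 vehicle and 1 of 20 AG-120 cells, and Car1 in 0 of both. Those counts allow shares of up to 14.8% (Clopper-Pearson) for vehicle cells and 24.9% for Klf1 in AG-120 cells. The states are not named as cell types: in vehicle Klf1+Car1- cells the megakaryocyte markers summed to 1341 CPM, above both the erythroid markers of the same cells (661 CPM) and the megakaryocyte markers of vehicle Klf1-Car1- cells (777 CPM). In vehicle Klf1+Car1+ cells the erythroid markers, which include Klf1 and Car1, led at 2740 CPM beside 217 CPM of megakaryocyte markers.

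Within the vehicle library, the cytosolic enzymes were higher in cells that carried Klf1. Their sum was 1377 CPM in Klf1-Car1- cells, 1505 CPM in Klf1+Car1- cells and 1981 CPM in the 37 Klf1+Car1+ cells. The mitochondrial sum without Lars2 was 306, 319 and 493 CPM in the same states. In the AG-120 library the differences were smaller: the cytosolic sum was 1800 CPM in Klf1-Car1- cells, 2009 CPM in Klf1+Car1- cells and 2008 CPM in Klf1+Car1+ cells, and the mitochondrial sum without Lars2 was 384, 462 and 463 CPM. The Klf1+Car1+ cells of the 2 libraries thus stood at nearly the same cytosolic level.

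All Klf1+ cells against Klf1-Car1- cells gave a log2 ratio of summed cytosolic UMIs of 0.26 with vehicle (0.22 to 0.30) and 0.16 with AG-120 (0.14 to 0.18). Of 20 cytosolic members, 10 were higher with vehicle and 3 with AG-120, where 26.4% and 18.7% of measured genes were. Of 16 mitochondrial members, 8 and 9 were higher. The mitochondrial share of higher members was thus above the background in both libraries, and the cytosolic share was above it with vehicle and near it with AG-120. The difference between the libraries was not tested, and it depends on how the state is called: from all UMIs of every kept cell the log2 ratio was 0.23 with vehicle and 0.34 with AG-120. The G2/M marker sum moved with Klf1 in the vehicle library, at 892 CPM in Klf1-Car1- cells and 1962 CPM in Klf1+Car1- cells, and less in the AG-120 library, at 893 and 1067 CPM. Other measures moved with these vehicle states too, in the order Klf1-Car1-, Klf1+Car1- and Klf1+Car1+: the granulocyte-monocyte progenitor markers stood at 3176, 647 and 53.9 CPM, the neutrophil markers at 1858, 32.2 and 4.49 CPM, and the median depth at 13744, 14086 and 25186 UMIs. Their part in these ratios was not tested.

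In Klf1+Car1+ against Klf1-Car1- cells, 16 of 20 cytosolic and 13 of 16 mitochondrial members were higher with vehicle (30.6% of measured genes), and 3 and 9 with AG-120 (19.1%). With vehicle the largest ratios were those of Vars2 (24.3 against 10.2 CPM, 2.38-fold, 1.55 to 3.50), Cars (33.2 against 14.02 CPM, 2.37-fold, 1.66 to 3.30) and Mars2 (2.09-fold). These rest on few molecules, with 27, 37 and 28 UMIs in the 37 cells. With AG-120, where the cells are many, Vars2 again had the largest ratio at 1.41-fold (1.2 to 1.67), followed by Nars2 at 1.37-fold and Hars at 1.34-fold (121 against 90.4 CPM). Lars2 was lower in Klf1+Car1+ cells of both libraries, 151 against 253 CPM with vehicle (0.60-fold) and 137 against 171 CPM with AG-120 (0.80-fold). Gm42418 moved with it, at 1832 against 3416 CPM with vehicle and 2129 against 2334 CPM with AG-120.

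Among the vehicle cells, the members higher in Klf1+ than in Klf1-Car1- cells were 9 of 12 known ATF4 responders, led by Aars (59.0 against 37.5 CPM, 1.57-fold, 1.36 to 1.81), Cars and Yars, and 1 of the 8 other cytosolic genes, Hars, beside 26.4% of all measured genes. Among AG-120 cells the counts were 2 of 12 and 1 of 8, beside 18.7%, so neither stood far from the share of all genes there. The difference between the 2 groups of genes was not tested.

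Among AG-120 cells with Klf1, no member differed at 1.2-fold by the Car1 call of the thinned cells. That call misses Car1 in part, as the Klf1+Car1+ share was 43.9% with thinning and 68.2% from all UMIs. The Klf1+Car1- state therefore also holds cells with Car1, and the comparison cannot show how members differ without it. Klf1+Car1+ against Klf1+Car1- cells of the AG-120 library gave 0 of 36 members higher and 0 lower, where 2.68% of measured genes were higher and 8.55% lower. The cytosolic sums were equal within counting error (ratio 1.00, 0.99 to 1.01), and the members ranged from 0.92 (Tars2) to 1.14 (Ears2). Across bins of 0, 1 to 2, 3 to 5 and 6 or more Car1 UMIs in Klf1+ cells, the cytosolic sum was 2009, 1977, 2039 and 2014 CPM, and the mitochondrial sum without Lars2 was 462, 454, 474 and 464 CPM.

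Between libraries within a state, the cytosolic difference was present in Klf1-Car1- and Klf1+Car1- cells and not seen in Klf1+Car1+ cells. In Klf1-Car1- cells, 15 of 20 cytosolic and 6 of 16 mitochondrial members were higher with AG-120 (25.1% of measured genes), with a log2 ratio of the cytosolic sum of 0.39 (0.37 to 0.41). In Klf1+Car1- cells, 12 and 13 were higher (27.6%), and the cytosolic sum had a log2 ratio of 0.42 (0.37 to 0.46). In Klf1+Car1+ cells, 4 and 1 were higher (23.2%), and 3 and 5 were lower, beside 2847 of 9318 measured genes lower. The lower counts are thus not above the share of all genes by any clear margin. The cytosolic sum in this state had a log2 ratio of 0.02 (−0.04 to 0.08). That last comparison has 37 vehicle cells, and its value was 0.13 when levels were taken from the thinned UMIs. With states called from all UMIs, the value for Klf1-Car1- cells was 0.22.

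Gars was higher with AG-120 in each of these states, by less in the last. In Klf1-Car1- cells it was at 86.9 CPM with vehicle and 155 CPM with AG-120 (1.79-fold), in Klf1+Car1- cells at 93.5 and 199 CPM (2.13-fold, 1.86 to 2.44), and in Klf1+Car1+ cells at 170 and 201 CPM (1.18-fold, 1.02 to 1.37), which is under the 1.2-fold mark. Yars2, with ratios of 1.61, 2.05 and 1.51 in the same order, was above the mark in all 3. So were Hars (1.57, 1.75 and 1.26), Farsb (1.61, 2.04 and 1.21) and Kars (1.46, 1.52 and 1.23). In Klf1+Car1+ cells the interval of Farsb was 1.02 to 1.45, and that of Kars (0.96 to 1.59) includes 1. Sars, Iars and Tars went the other way in Klf1+Car1+ cells. Sars and Iars were at 0.72-fold each, with Sars at 130 CPM with vehicle and 93.4 CPM with AG-120, and Tars at 0.76-fold (0.62 to 0.95). The 5 lower mitochondrial members there were Wars2 (0.62-fold), Vars2 (0.69), Nars2 (0.71), Hars2 (0.74) and Rars2 (0.81). Of these 5, only Nars2 had an interval under 1 (0.52 to 0.98). Aars2 had the largest ratio in Klf1-Car1- cells at 1.84-fold and was at 1.02-fold in Klf1+Car1+ cells.

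The states do not hold the same cells in both libraries. In Klf1-Car1- cells the granulocyte-monocyte progenitor markers summed to 3176 CPM with vehicle and 5619 CPM with AG-120, the stem and progenitor markers to 1031 and 203 CPM, and the megakaryocyte markers to 777 and 235 CPM. The erythroid markers of these cells summed to 143 CPM with vehicle and 828 CPM with AG-120. Thinning put 674 AG-120 cells in this state, and calling from all UMIs of every kept cell put 440 there. In Klf1+Car1- cells the erythroid markers summed to 661 and 1752 CPM, the megakaryocyte markers to 1341 and 69.1 CPM, and the G2/M markers to 1962 and 1067 CPM. In Klf1+Car1+ cells the erythroid markers were at 2740 and 2803 CPM, the megakaryocyte markers at 217 and 28.5 CPM, and the G2/M markers at 1903 and 1050 CPM. The part of this make-up in the within-state ratios was not tested. When the AG-120 states were weighted by the vehicle shares, the median log2 ratio was 0.38 over cytosolic and 0.23 over mitochondrial members. In cells of 15000 to 25000 UMIs (1243 vehicle and 1220 AG-120 cells, chosen after the data were seen), it was 0.34 and 0.41, beside −0.05 over all genes measured there, and Iars was at −0.15.

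**Figure D3:**
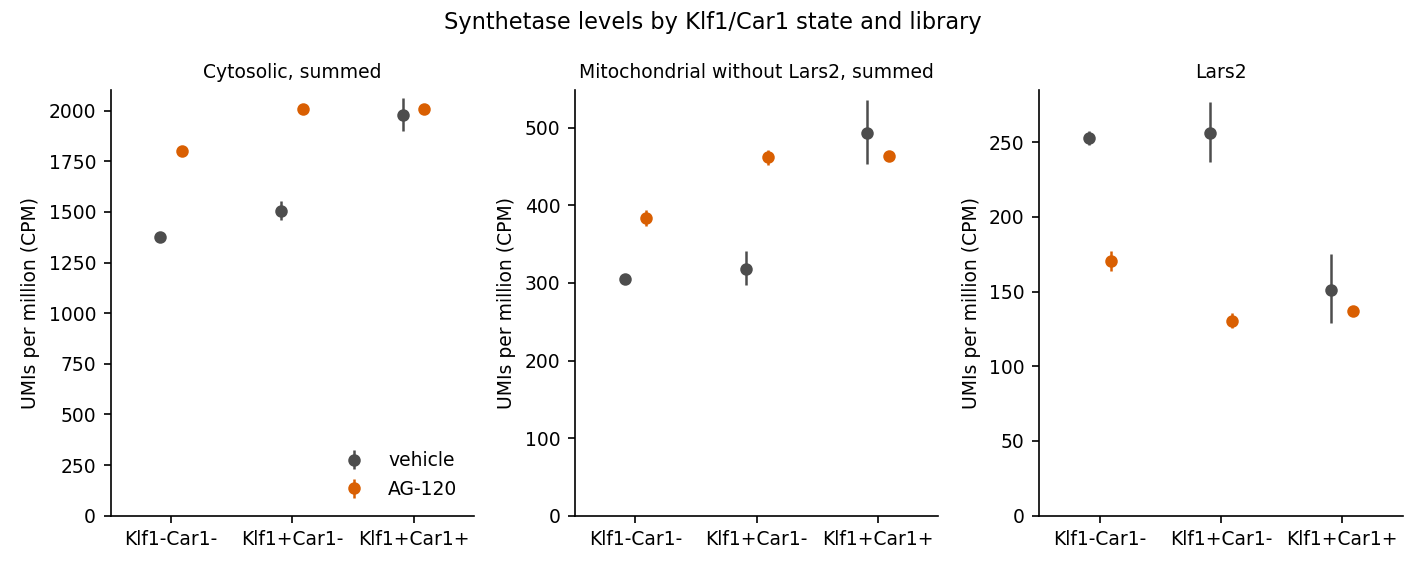
Summed level of the 20 cytosolic genes, of the 15 mitochondrial genes other than Lars2, and of Lars2 alone, in CPM by Klf1/Car1 state, vehicle in grey and AG-120 in orange, with exact 95% counting intervals. The libraries are far apart in Klf1-Car1- and Klf1+Car1- cells and close in Klf1+Car1+ cells, where the vehicle library has 37 cells.

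Wars is known as an interferon-inducible synthetase, so the members were also read by the summed UMIs of 7 interferon response genes per thinned cell. In AG-120 cells Wars was at 45.0 CPM in 2366 cells with 0 such UMIs, 47.9 CPM at 1 to 2, 55.6 CPM at 3 to 9 and 81.6 CPM in 34 cells with 10 or more. The last bin was 1.81-fold above the first (1.39 to 2.33, on 62 Wars UMIs), and the 3 to 9 bin was 1.24-fold above it (1.09 to 1.39). The first and last bins also differ in make-up and depth. Their granulocyte-monocyte progenitor markers summed to 1208 and 117 CPM and their G2/M markers to 1004 and 704 CPM. Their median depth was 26262.5 and 20934.5 UMIs. The part of these differences in the Wars level was not tested. In vehicle cells the first 3 bins gave 36.9, 37.4 and 31.9 CPM, the last on 11 UMIs of 26 cells.

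Wars was the only member higher at 1.2-fold in the 3 to 9 bin, 1 of 36, where 8.58% of measured genes were. In the bin of 10 or more, 9 of 36 members were higher, close to the 20.7% of all measured genes, among them Wars2 (2.02-fold, 1.10 to 3.41, on 14 UMIs), Ears2 (1.90-fold, 1.18 to 2.89, on 22 UMIs) and Yars (1.38-fold, 1.06 to 1.77). Neither the cytosolic nor the mitochondrial sum differed from the 0 bin by more than 1.03-fold in that bin.

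**Figure D4:**
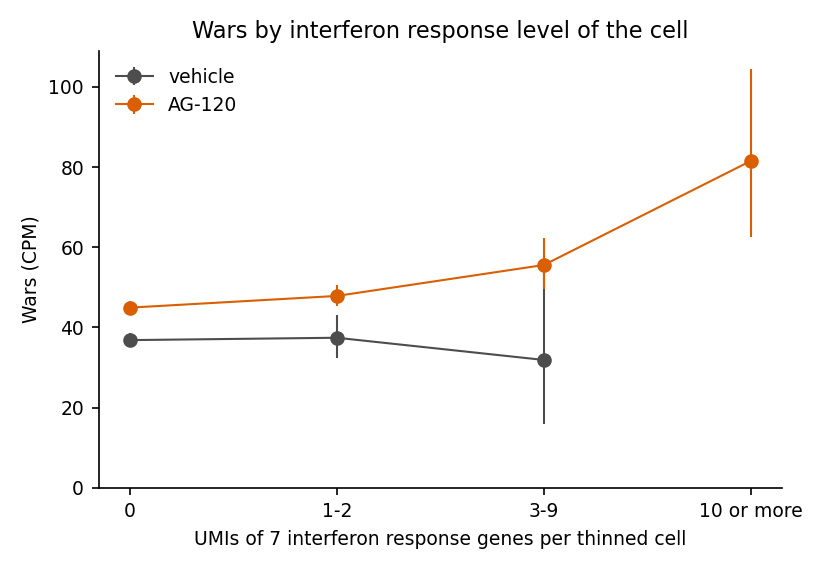
Wars level in CPM by the summed UMIs of 7 interferon response genes per thinned cell, vehicle in grey and AG-120 in orange, with exact 95% counting intervals. The AG-120 points go from 45.0 to 81.6, and the vehicle points stay between 31.9 and 37.4 with a wide interval in the third bin.

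Genes whose products work with the synthetases were read in the same all-cell comparison (28.8% of measured genes higher, 42.2% lower). The share of genes higher with AG-120 differed between the lists. All 3 scaffold genes of the multisynthetase complex were higher: Aimp2 at 43.4 CPM with vehicle and 80.9 CPM with AG-120 (1.87-fold), Eef1e1 at 96.0 and 157 CPM (1.63-fold) and Aimp1 at 140 and 191 CPM (1.36-fold). All 5 trans-editing factors and paralogues were higher, led by the threonyl paralogue Tarsl2 (8.70 and 23.8 CPM, 2.73-fold, 2.48 to 3.02) and Dtd2 (2.13-fold), an enzyme that removes mischarged amino acids from tRNA. Of 15 tRNA maturation and export genes, 12 were higher and 1 lower, and the pair that forms the tRNA methyltransferase for 7-methylguanosine were at 2.28-fold (Mettl1) and 2.61-fold (Wdr4).

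Of 6 cytosolic elongation factors 3 were higher and 0 lower: Eef1d (1.86-fold), Eif5a (1.67-fold) and Eef1g (1.61-fold). All 6 together summed to 16660 CPM with vehicle and 18250 CPM with AG-120 (1.095-fold). On the mitochondrial side, 4 of 10 translation factors were higher and 0 lower, among them Tufm, the elongation factor that carries charged tRNA to the mitochondrial ribosome (98.1 and 215 CPM, 2.19-fold), and its exchange factor Tsfm (1.93-fold). Of 9 mitochondrial tRNA maturation genes 6 were higher, with Pus1, a pseudouridine synthase, at 49.1 and 91.2 CPM (1.86-fold). Of the 4 charging partners, which make glutaminyl-tRNA and formyl-methionyl-tRNA in mitochondria, 2 were higher. The median log2 ratio was 0.24 over the translation factors, 0.25 over the charging partners and 0.43 over the maturation genes, beside 0.47 over the mitochondrial synthetases.

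The other ATF4 targets did not share 1 direction. Of 23 genes on that list, 17 passed the 500 UMI minimum, and 10 of these were higher and 4 lower. Eif4ebp1, an inhibitor of cap-dependent translation, was at 87.5 CPM with vehicle and 252 CPM with AG-120 (2.87-fold), and Aldh18a1 of proline synthesis at 26.6 and 65.4 CPM (2.46-fold). Slc38a2, a neutral amino acid transporter, was at 159 and 79.0 CPM (0.50-fold). Of the 9 eIF2 kinases and regulators that were measured, 3 were higher and 3 lower. Eif2ak4, the kinase that senses uncharged tRNA, was at 20.2 CPM with vehicle and 12.5 CPM with AG-120 (0.62-fold, 0.57 to 0.67). Eif2ak3, the kinase of endoplasmic reticulum stress, was at 0.67-fold. The remaining kinases, named after their values were seen, were higher: Eif2ak1 at 1.31-fold (1.24 to 1.39) and Eif2ak2 at 1.425-fold (1.35 to 1.51). The eIF2 kinases thus did not share a direction. Of the regulators, Ppp1r15b was at 1.66-fold and Ppp1r15a at 0.68-fold.

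**Figure D5:**
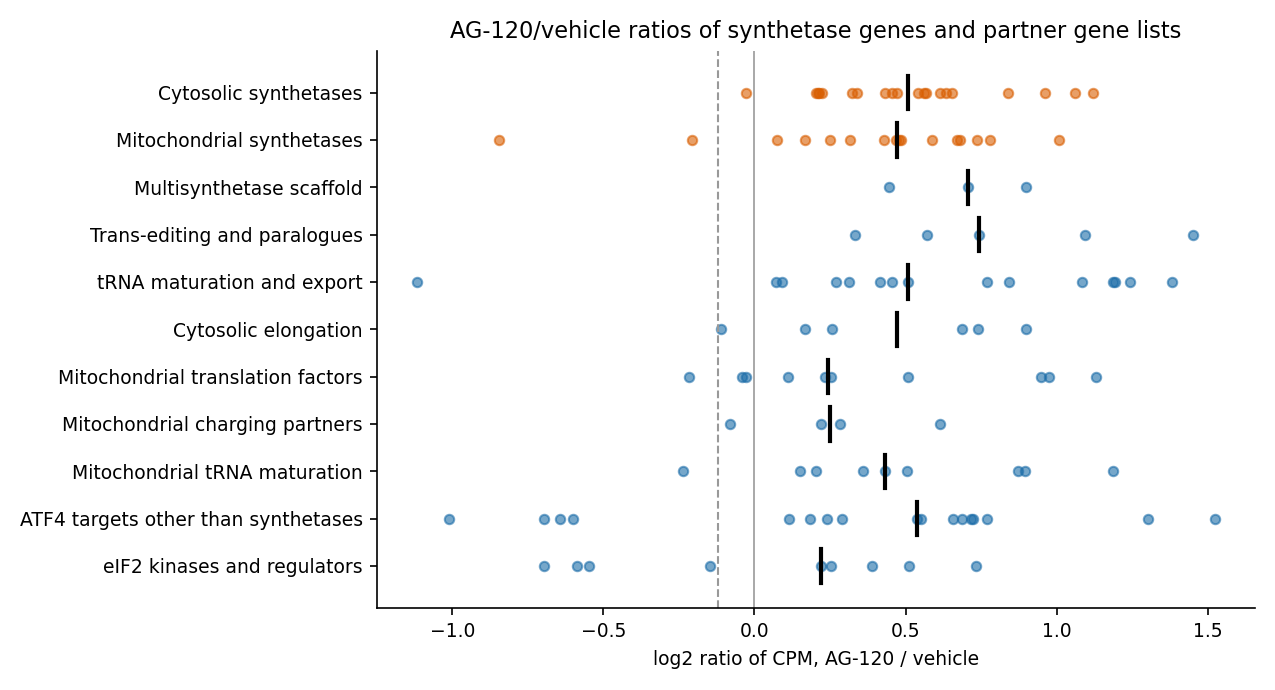
log2 ratio of CPM, AG-120 over vehicle, for each measured gene (points) of the synthetase groups (orange) and partner lists (blue), with the list median as a black bar; the solid line marks 0 and the dashed line the median of all measured genes, −0.12. The medians of all lists lie above the dashed line, and Lars2 is the lowest synthetase at −0.84.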

How the data were processed

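Per the labels' protocols, sorted cKit+ Cd11b- cells of vehicle and AG-120 treated mice went through a 10x Genomics droplet workflow, 1 channel and 1 library per treatment. The protocol names a 5′ kit and the design text a 3′ platform, so the tagged transcript end is uncertain. The deposited matrices hold raw UMI counts per gene and cell barcode, which the authors made without normalization, per the file headers (software version 3.0.2). The submitters' processing notes name Cell Ranger 3.1.0, Seurat 4.0.4 and the build mm10/GRCm38.

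The gene set and all gene lists were chosen with earlier results of these data known. Kept cells had at least 500 genes and at most 10% mt- UMIs. UMIs were summed per library or state and scaled to CPM. Ratios carry exact conditional binomial 95% intervals and the ratio of 2 ratios a normal one on the log scale; all cover counting error only. A gene was measured at 500 UMIs over both libraries, or at 100 within states. Higher or lower means 1.2-fold or more, a description. With 1 library per treatment no test was run and no p is given. States were called after thinning each cell to 6500 UMIs, which left out 361 vehicle and 131 AG-120 cells, and their levels use all UMIs of those cells. States need 50 cells per library, and 20 to 49 cells are given with their number. No doublet caller was run and doublets stayed in. Any member may be named, and of each partner list the 4 measured genes with the largest absolute log2 ratio; exceptions are stated. Gene positions and exon overlaps come from GENCODE mouse release 21 (GRCm38), promoters from RefSeq, and shared stretches from BLAST 2.17.0. Ratios were computed with Python 3.11.15, numpy 2.4.6, pandas 2.3.3 and scipy 1.17.1 and tested on simulated data. Alternatives were other scalings, filters, thresholds, state calls, depths and cells left out.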

Additional observations from a re-analysis of the deposited data

How the results depend on the processing

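Of the 36 members, 32 had a log2 ratio above 0 and 2 (Lars2 and Wars2) below 0 in all of 11 alternatives to the all-cell comparison; Iars (0.20, but −0.15 in cells of 15000 to 25000 UMIs) and Vars (−0.03, with a range of −0.07 to 0.10), both under the 1.2-fold mark, took both signs. The cytosolic-to-mitochondrial fold of 1.35 was 0.98 without Lars2, which reverses it, 1.19 in cells of 15000 to 25000 UMIs, 1.31 with AG-120 states weighted by vehicle shares, 1.37 without the 5% of cells with the most UMIs, 1.38 after thinning and 1.40 with cells weighted equally. The cytosolic and mitochondrial medians were 0.63 and 0.60 under median scaling and 0.38 and 0.23 under state weighting, with 6 mitochondrial members higher; the cytosolic median was 0.34 in the 15000 to 25000 UMI cells. At 1.5-fold, 7 cytosolic and 6 mitochondrial members were higher. The share of all measured genes is not given for that fold or for state weighting, so these counts have no background beside them. The log2 ratio of the cytosolic sum between libraries in Klf1-Car1- cells was 0.22 with states from all UMIs, 0.34 from thinned UMIs and 0.49 under median scaling. In Klf1+Car1+ cells it was 0.10 with positives at 2 UMIs and 0.13 from thinned UMIs, and in Klf1+Car1- cells 0.56 under median scaling. Klf1+ against Klf1-Car1- gave, with vehicle, 0.30 at 2 UMIs, 0.20 thinned and 0.22 under median scaling, and, with AG-120, 0.34 from all UMIs and 0.19 thinned. The causes were not tested. Of the values for single members and other states, 367 stayed within their counting interval and 117 moved beyond it; none at 1.2-fold or more in the comparison as reported changed sign, while summed mitochondrial ratios by state that lay between −0.01 and 0.09 took values from −0.16 to 0.09 on the other side of 0. Depth limits Pars2, Wars2, Ears2 and Aars2 most, and every state with 37 vehicle cells. No paired analysis was possible because each treatment has 1 library.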

Other observations

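Of the 23 ATF4 targets other than synthetases, 6 stayed under the 500 UMI minimum, and all 6 are named here after their values were seen; 5 were higher with AG-120 and 1 was lower. Asns, the enzyme that makes asparagine, had 5 UMIs with vehicle and 132 with AG-120 (15.4-fold, 6.46 to 48.4). Trib3, a pseudokinase of the stress response, had 10 and 171 UMIs (10.0-fold, 5.31 to 21.3), and Chac1, which degrades glutathione, had 7 and 85 UMIs (7.11-fold, 3.30 to 18.2). Nupr1, a stress-induced nuclear protein, had 50 and 311 UMIs (3.64-fold, 2.69 to 5.01), and Slc7a11, the cystine transporter, 55 and 147 UMIs (1.56-fold, 1.14 to 2.17). Vldlr, a lipoprotein receptor, went the other way with 17 and 4 UMIs (0.14-fold, 0.034 to 0.42). All 6 were rare transcripts in both libraries, at most 3.24 CPM. Of the 4 measured genes that were lower, Slc38a2 is given above, and the other 3 were Ddit4 (34.6 and 21.4 CPM, 0.62-fold), Atf5 (7.01 and 4.49 CPM, 0.64-fold) and Sesn2 (7.93 and 5.24 CPM, 0.66-fold). Atf4 itself, also named after its value was seen, was at 74.1 CPM with vehicle and 86.3 CPM with AG-120 (1.16-fold, 1.12 to 1.21). The serine and one-carbon enzymes of the same list were higher: Shmt2 at 88.7 and 146 CPM (1.65-fold), Mthfd2 at 46.6 and 74.9 CPM (1.61-fold) and Psat1 at 108 and 170 CPM (1.58-fold), likewise chosen after their values were seen.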
